A study of Macaca mulatta with 51 samples.

Results

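AADACL3 and 4 other genes that encode lipid ester hydrolases (AADAC, NCEH1, CES1 and CES2) were followed in subcutaneous adipose tissue (AT) and gastrocnemius skeletal muscle (SM) of obese rhesus macaques before, during and after treatment with FGF21. Members were taken by gene symbol, and AADACL3 was picked because it fell post-treatment in AT in every animal. Of the 5 members, 4 were found among the 16033 genes of the count table, and CES2 was not analysed here. In AT, AADACL3 was lower post-treatment and higher again at washout, CES1 moved the same way by a smaller step, NCEH1 and AADAC were lower at washout than post-treatment, and in SM neither NCEH1 nor CES1, the only members that could be tested there, passed the test.

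The AADAC family and the carboxylesterases are enzymes of the alpha/beta hydrolase fold that cleave an ester bond and release a fatty acid or another acid. AADAC (arylacetamide deacetylase) sits in the endoplasmic reticulum and is known from liver and intestine, where it also hydrolyses drugs. NCEH1 (neutral cholesterol ester hydrolase, once called AADACL1) is anchored in the same membrane and frees cholesterol from its esters, a role best known in macrophages that load lipid. CES1 hydrolyses triacylglycerol and cholesterol esters as well as ester drugs in liver, adipocytes and macrophages, and AADACL3 is a relative of AADAC whose substrate is less well described.

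The animals were 10 adult rhesus macaques, males and ovariectomized females, obese on a high-fat, high-sucrose diet and injected daily under the skin with native human FGF21 at rising doses, with an animal that the labels do not name held at a lower dose. Punch biopsies of AT and SM were taken from the same animals at 3 time points, which were pre-treatment, the last stage of dosing (post-treatment) and a later date off drug (washout). All groups shared the diet, and no untreated animals were among the samples, so that treatment and time cannot be told apart. Each biopsy gave 1 library of RNA sequencing counts, and libraries of 1 group came from different animals.

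AT had 10 pre-treatment, 9 post-treatment and 8 washout libraries, and SM had 6, 8 and 7 from 8 animals. Total counts ranged from 14455195 to 23940980 per library, and levels are given as CPM, read counts scaled to a common library total. The 9 measured markers of mature adipocytes summed to between 10288 and 35872 CPM in AT and to between 320 and 1901 CPM in SM, while the 9 measured muscle fiber markers summed to between 57044 and 276533 CPM in SM and to at most 187 CPM in AT, so each tissue carried the markers of its label. Skin markers (keratinocyte, sebocyte and sweat gland lists) passed 100 CPM (here scaled to the library total alone) in 4 AT libraries, with 1264 CPM in the pre-treatment library of animal 23004 and 1061 CPM in the washout library of animal 21189. A gene was called differentially expressed (DE) when its adjusted p in edgeR's quasi-likelihood test was under 0.05 and its log2 fold change passed 0.26 in either direction, in a fit with time point and animal. Of 13367 genes tested in AT, 14.5% were DE post- compared to pre-treatment, 34.0% at washout compared to post-treatment, and 19.8% at washout compared to pre-treatment. In SM these shares were 0%, 0.135% and 0.0238% of 12617 genes.

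The decrease that selected AADACL3 (ENSG00000188984) is given here as a description, with no test. In the 10 pre-treatment AT libraries AADACL3 lay between 0.194 and 5.70 CPM with a median of 2.67. In the 9 post-treatment libraries it lay between 0.0481 and 1.14 CPM with a median of 0.160, and in the 8 washout libraries between 0.110 and 2.73 CPM with a median of 2.01. The groups overlapped at their edges. The pre-treatment library of animal 19832, its only AT library, and the washout library of animal 22130 sat among the low post-treatment values, and the other pre-treatment and washout libraries, from 0.743 CPM upwards, were higher than most post-treatment libraries.

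The choice of the gene fixed the direction within animals post-treatment, and AADACL3 was lower than pre-treatment in 9 of 9, by 1.98 (animal 20261) to 4.50 (animal 20456) on the log2 scale with a median change of -2.54. It was higher at washout than post-treatment in 8 of 8 animals, with a median change of 1.80 and the smallest step, 0.49, in animal 22130. At washout it was lower than pre-treatment in 6 animals and higher in 2, with a median change of -0.47. Animal 20261 had the highest AADACL3 both post-treatment and at washout, and animal 22130 the lowest at both.

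The edgeR fit put the post-treatment level of AADACL3 8.29-fold under the pre-treatment level, with a log2 fold change of -3.05. Washout compared to post-treatment gave 2.50, and washout compared to pre-treatment -0.56. These contrasts share the libraries that chose the gene, so their errors are not given. AADACL3 is a rare transcript in AT. It had 4 to 103 counts in pre-treatment libraries and 1 to 22 post-treatment, and 5 of the 9 post-treatment libraries held 3 counts or fewer, so the depth of the decrease in those animals is poorly fixed by the counts.

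**Figure D1:**
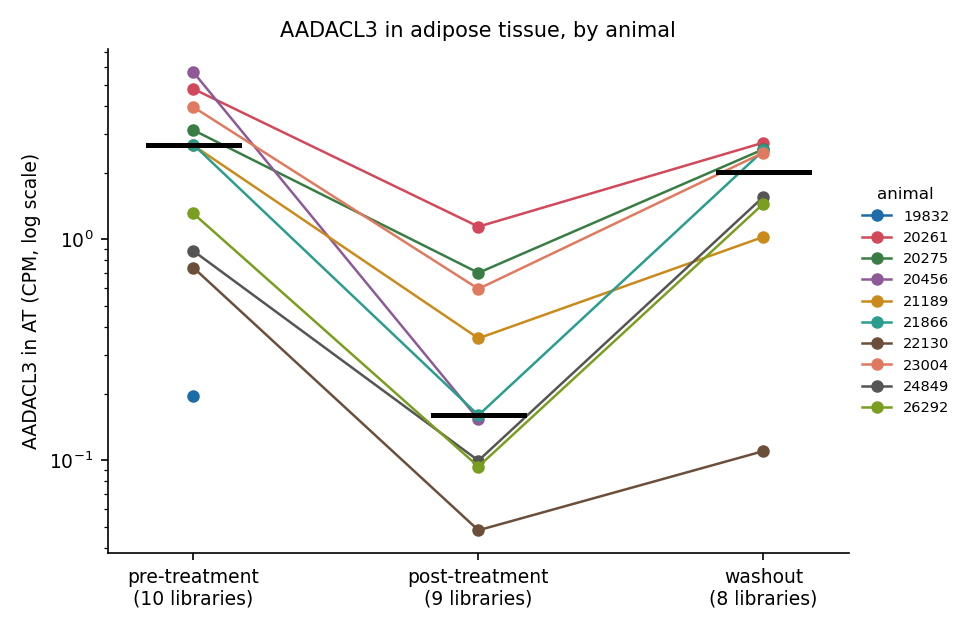
AADACL3 in AT in CPM (log scale) at the 3 time points, with 1 point per library, 1 colored line per animal and a black bar at the median of each time point. All 9 lines go down from pre- to post-treatment and all 8 go up at washout, with animal 22130 the lowest at the 2 later time points.

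Library identifiers fell into 3 number series, whose meaning is not given in the sources used here. The median change of AADACL3 post-treatment was -2.43 in the 6 animals with both AT libraries in the last series and -3.52 in the 2 of the middle series, and it was -2.48 in the 1 animal that spanned them. Its sign in each series was fixed by the choice of the gene. Some markers of other cells also changed over the same time points. The sebocyte and sweat gland list, 6 of 8 genes measured, had a median sum of 7.19 CPM pre-treatment, 3.35 CPM post-treatment and 13.9 CPM at washout. Of its 5 genes tested ELOVL3 fell post-treatment, and ELOVL3 and DCD rose at washout compared to post-treatment. These were 20% and 40% of the 5, near the 14.5% and 34.0% of all genes. The erythroid list, all 6 genes measured and HBA1 at 0, had a median sum of 2677 CPM pre-treatment (327 to 10554), 851 CPM post-treatment (454 to 7644) and 5107 CPM at washout (457 to 11989). All 5 of its genes tested had a negative log2 fold change post-treatment (median -1.13), of which SLC4A1 was DE. All had a positive one at washout compared to post-treatment (median 1.59), of which SLC4A1, ALAS2 and HBB were DE. The erythroid genes called were 20% and 60% of the 5, against 14.5% and 34.0% of all genes. Fitted without the 4 libraries high in skin markers, which were left out after seeing the data, AADACL3 had log2 fold changes of -3.12 post- compared to pre-treatment and 2.60 at washout compared to post-treatment. The adipocyte list summed to between 17609 and 35872 CPM pre-treatment and between 10288 and 31630 CPM post-treatment. Of its 9 genes 3 were DE, all lower (LEP, TUSC5 and PLIN1), or 33.3% against 14.5% of all genes. The fitted change was negative for 7 of the 9 and positive for 2, PCK1 (0.87) and ACVR1C (0.05), neither DE. At washout compared to post-treatment LEP and TUSC5 were DE higher and PCK1 and ACVR1C DE lower, or 44.4% against 34.0% of all genes. The part of these cells in the level of AADACL3 was not tested. In bulk tissue, fewer cells of a type and less RNA per cell cannot be told apart.

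Over the 27 AT libraries, the closest patterns to AADACL3 by Pearson's r of log2 CPM, among 12139 genes compared, belonged to ADM2 (0.83), DUSP14 (0.83), HIST1H4H (0.78), ENO1 (0.78) and GBP2 (0.77), and the most opposed to KLF11 (-0.87), ZNF595 (-0.81) and ZNF22 (-0.80). These libraries share animals and time points, so r is a description. With the means of the time points removed, ADM2 was still at 0.72 and KLF11 at -0.77, while BAG3 (0.75) and SLC2A8 (0.73) came first. ADM2, which encodes a peptide of the calcitonin family, had mean levels of 3.07, 0.789 and 2.52 CPM at the 3 time points, and the repressor KLF11 had 65.2, 94.4 and 62.6 CPM. The adipokine LEP had r of 0.58 with AADACL3 over all libraries and 0.12 with the time point means removed, against -0.11 and -0.18 for ADIPOQ.

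The gene next to AADACL3 in the RefSeq annotation of the rhesus assembly T2T-MMU8v2.0 is its relative AADACL4, followed by DHRS3, a retinal reductase, and VPS13D. AADACL4 had 2 counts in all 27 AT libraries together and 40 in the 21 SM libraries, the opposite distribution of AADACL3, which had 828 in AT and 22 in SM. DHRS3 rose post-treatment (log2 fold change 0.41, adjusted p = 0.0222 in edgeR's quasi-likelihood test), and VPS13D had -0.12 (adjusted p = 0.402 in the same test).

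AADAC (ENSG00000114771), the founding member of the family, differed more between animals than between time points. In AT it lay between 0 and 8.08 CPM pre-treatment with a median of 0.706, between 0.199 and 9.99 CPM post-treatment with a median of 0.466, and between 0 and 2.84 CPM at washout with a median of 0.340. The 3 ranges overlapped almost in full. Animals 21189 and 26292 stayed at or above 1.83 and 2.84 CPM in each of their 3 libraries, and animal 19832 had 6.22 CPM in its only library. Animals 20261, 22130 and 24849 never passed 0.466, 0.337 and 0.199 CPM.

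Of the spread of AADAC in AT, 77.0% went with the animal, more than for 97.7% of the genes tested (median 37.8%), and 8.19% with the time point. The corresponding shares for the time point were 35.4% for CES1 and 27.8% for NCEH1, against a median of 19.7% over the genes. For AADACL3, picked for its change between time points, the share was 54.0%.

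Post- compared to pre-treatment, AADAC was higher in 6 animals and lower in 3, and the difference did not pass the test (log2 fold change 0.66, SE 0.53, 95% interval -0.45 to 1.76, adjusted p = 0.400 in edgeR's quasi-likelihood test). From post-treatment to washout it went down in 7 of 8 animals and was DE. It fell by 1.91 on the log2 scale (SE 0.59, adjusted p = 0.0168 in edgeR's quasi-likelihood test). The largest step was in animal 21866, which went from 69 counts to 0, and without that animal the edgeR log2 fold change was -1.35 with an adjusted p of 0.0293. The call ended without the animal in the model (adjusted p = 0.191), with only the 2 time points compared (adjusted p = 0.0537) and without the 4 libraries high in skin markers (log2 fold change -1.43, adjusted p = 0.0625), all in edgeR's quasi-likelihood test. Washout compared to pre-treatment gave -1.25 (SE 0.59, adjusted p = 0.142 in the same test), with 6 of 8 animals lower. This difference became DE with voomWithQualityWeights of limma (-1.36, adjusted p = 0.00572) and in edgeR with only the 2 time points compared (-1.20, adjusted p = 0.0411).

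**Figure D2:**
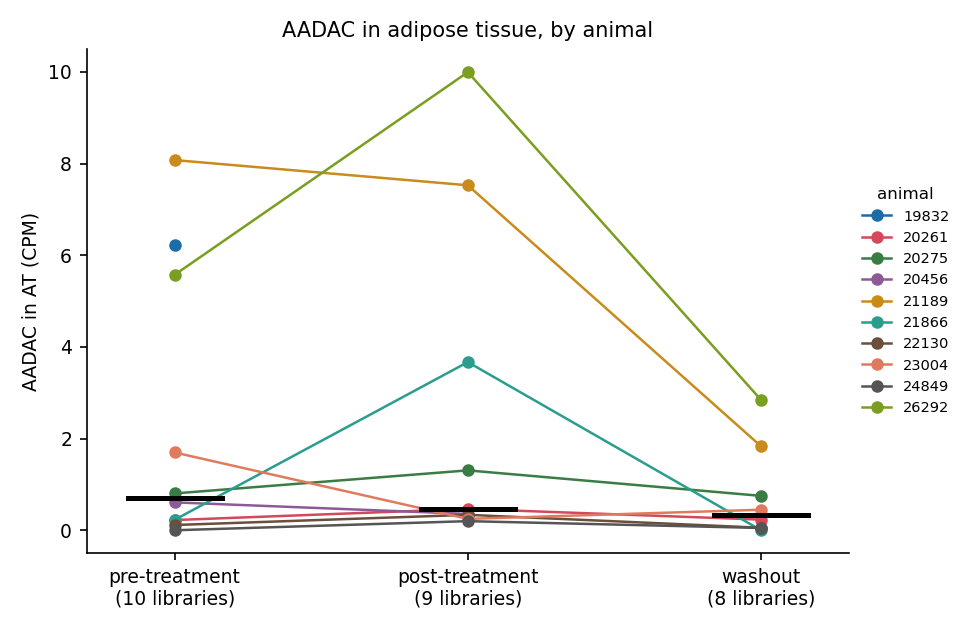
AADAC in AT in CPM at the 3 time points, with 1 point per library, 1 line per animal and a black bar at the median. Animals 21189 and 26292 stay at or above 1.83 CPM throughout, animal 21866 is high only post-treatment at 3.67 CPM, and the other animals with more than 1 library stay at or under 1.70 CPM.

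The genes most like AADAC over the AT libraries were FBXL4 (r = 0.74), CD5L (0.69), MCUB (0.69), SLC9A9 (0.69) and SERPINA1 (0.68). CD5L is a protein secreted by macrophages, and its mean was 8.41, 15.7 and 4.56 CPM at the 3 time points. SERPINA1 belongs to the hepatocyte list, of whose 10 genes FGA was at 0 in all AT libraries and 4 more (FGB, APOB, HPX and AHSG) did not pass the filter on low counts. The list summed to medians of 1213, 1360 and 623 CPM at the 3 time points. Of the 5 genes tested, SERPINA1 and TF fell at washout compared to post-treatment, by 1.34 and 1.21 on the log2 scale (adjusted p = 1.01e-04 and 0.00316 in edgeR's quasi-likelihood test). These were 40% of the 5, near the 34.0% of all genes, and ALB, APOA1 and TTR were not DE. TF, which encodes the iron carrier transferrin, had a mean of 1025 CPM pre-treatment, 1268 CPM post-treatment and 535 CPM at washout. The part of any cell type in the level of AADAC was not tested. The AADAC relative AADACL2, its near neighbor in the RefSeq annotation, had 18 counts in AT, of which 15 came from the post-treatment library of animal 23004, where the keratinocyte markers also summed to their AT maximum of 110 CPM.

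NCEH1 (ENSG00000144959), the cholesterol ester hydrolase of the family, was lower at washout than post-treatment. In AT it lay between 11.8 and 96.3 CPM pre-treatment with a median of 46.1, between 29.6 and 203 CPM post-treatment with a median of 66.2, and between 9.74 and 113 CPM at washout with a median of 21.9. The groups overlapped, with the post-treatment library of animal 20275 and the washout library of animal 23004 far over the rest of their groups. The fall at washout was 1.53 on the log2 scale (SE 0.43, adjusted p = 0.0110 in edgeR's quasi-likelihood test), in 6 of 8 animals, and remained called under each alternative and with each animal left out.

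Post- compared to pre-treatment, NCEH1 was higher in 7 of 9 animals, but the log2 fold change of 0.82 (SE 0.41, 95% interval -0.04 to 1.68) did not pass the test (adjusted p = 0.170 in edgeR's quasi-likelihood test). The animals differed widely, from a fall of 0.95 in animal 20456 to a rise of 3.03 in animal 22130. The 6 animals with both libraries in the last identifier series were all higher (median change 0.45) and the 2 in the middle series both lower (-0.75). Washout compared to pre-treatment gave -0.71 (SE 0.42, adjusted p = 0.255 in edgeR's quasi-likelihood test).

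The macrophage markers, with all 16 listed genes measured, moved with NCEH1. Their sum ranged from 929 to 2913 CPM pre-treatment, from 1257 to 6096 CPM post-treatment and from 532 to 2550 CPM at washout. In the edgeR test 5 of the 16 rose post-treatment (C1QB, VSIG4, C1QC, C1QA and MS4A7), and 15 of 16 fell at washout compared to post-treatment. These were 31.2% and 93.8% of the list, against 14.5% and 34.0% of all genes. None of the 16 was under the filter on low counts. Over 9 animals, the change of NCEH1 from pre- to post-treatment followed the mean change of these markers, with Pearson's r of 0.921 (exact permutation p = 1.43e-04, adjusted p = 4.30e-04 over 3 such relations) and Spearman's rho of 0.95 (exact permutation p = 3.53e-04, adjusted p = 0.00106). Leaving out the 2 animals whose marker change lay farthest from the median, r was 0.848 over 7 (exact permutation p = 0.0149), and within the last identifier series it was 0.864 over 6 (exact permutation p = 0.00556). All permutation tests were two-sided. The part of macrophage content in the level of NCEH1 was not tested.

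**Figure D3:**
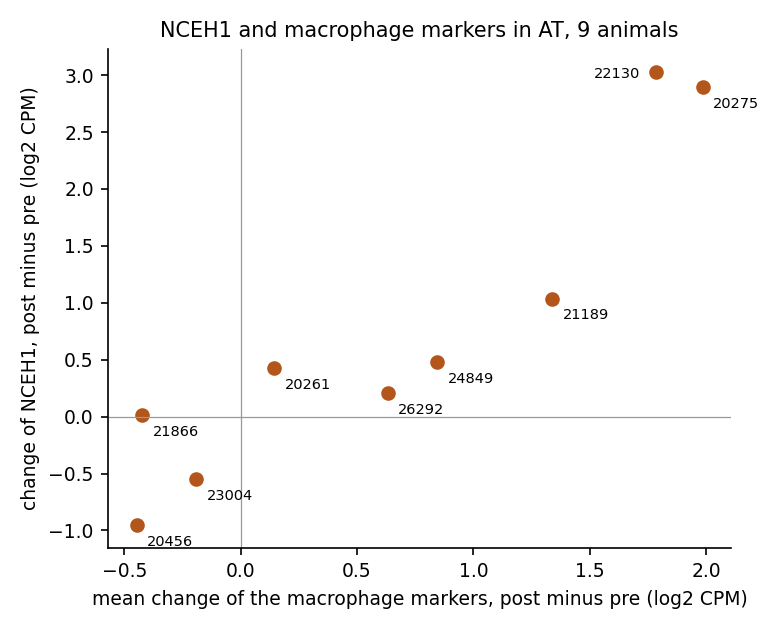
Change of NCEH1 from pre- to post-treatment in AT (log2 CPM) against the mean change of the 16 macrophage markers (log2 CPM), with 1 labeled point per animal, 9 in all. The points climb together (r = 0.921), from animal 20456 at the lower left to animals 22130 and 20275 at the upper right.

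Over the 27 AT libraries the genes most like NCEH1 were LCP1 (r = 0.98), the scavenger receptor gene MSR1 (0.98), CYBB (0.98), RAC2 (0.97) and LIPA (0.97), all known from macrophages or other white blood cells. With the time point means removed, LCP1 and MSR1 were at 0.98 and 0.97. LIPA, which encodes the acid lipase that cleaves cholesterol esters and triacylglycerol in lysosomes, had a mean of 1316 CPM pre-treatment, 3188 CPM post-treatment and 961 CPM at washout. It fell at washout compared to post-treatment by 1.96 on the log2 scale (SE 0.51, adjusted p = 0.00671 in edgeR's quasi-likelihood test), while its post-treatment change of 1.26 had an adjusted p of 0.0785.

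CES1 (ENSG00000198848), the measured carboxylesterase, fell post-treatment and rose at washout. In AT it lay between 13.2 and 56.5 CPM pre-treatment with a median of 25.3, between 3.82 and 23.9 CPM post-treatment with a median of 16.4, and between 11.2 and 40.3 CPM at washout with a median of 27.4. The ranges overlapped, but within animals CES1 was lower post- than pre-treatment in 9 of 9, by 0.17 (animal 20456) to 2.51 (animal 20275) on the log2 scale. The fitted level was 2.09-fold lower, or by -1.06 in log2 (SE 0.28, adjusted p = 0.0201 in edgeR's quasi-likelihood test). Without animal 22130 it was -0.97 with an adjusted p of 0.0685 in the same test, and the call ended.

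At washout CES1 was higher than post-treatment in 7 of 8 animals, by a fitted 0.88 in log2 (SE 0.29, adjusted p = 0.0255 in edgeR's quasi-likelihood test). This call was less firm. Leaving out animal 20275, 21189, 21866 or 22130 gave 0.65, 0.71, 0.85 and 0.83 with adjusted p of 0.0763, 0.0926, 0.0592 and 0.0609, a covariate for identifier series gave 0.73 (adjusted p = 0.0669), and leaving out the 4 libraries high in skin markers gave 0.81 (adjusted p = 0.0620). Compared to pre-treatment, washout gave -0.18 (95% interval -0.78 to 0.41, adjusted p = 0.690), with 4 animals higher and 4 lower. Primate genomes hold near-identical copies of CES1 that the counting may split, so its level is uncertain.

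The change of CES1 and that of the mature adipocyte markers had r of 0.686 over 9 animals (exact permutation p = 0.0333, adjusted p = 0.04995) and rho of 0.15 (exact permutation p = 0.708, adjusted p = 0.744). Leaving out the 2 animals whose marker change lay farthest from the median, r was -0.240 over 7 (exact permutation p = 0.624), so the relation rests on those animals. Within the last identifier series r was 0.864 over 6 animals (exact permutation p = 0.0806). The third of the 3 relations, of AADACL3 with the adipocyte markers, belongs to the contrast that picked the gene and is not given. The genes most like CES1 over the AT libraries were PFKM (r = 0.83), CIART (0.79), CARHSP1 (0.78), ESYT1 (0.78) and TEAD2 (0.78). PFKM encodes muscle phosphofructokinase and CIART a repressor of the circadian clock. NCEH1 ran against CES1, with r of -0.63, and -0.55 with the time point means removed.

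In SM the members were lower than in AT or missing. AADAC had no count in any of the 21 SM libraries. Taking 3 counts over each group as the most that a count of 0 allows, its mean in AT was at least 82.7-fold higher pre-treatment, at least 125-fold post-treatment and at least 31.8-fold at washout. A few animals carried these AT means of 2.35, 2.68 and 0.776 CPM, as the medians were 0.706, 0.466 and 0.340 CPM. Leaving out 1 AT library at a time, the lowest limits were 60.3 pre-treatment (animal 21189), 82.6 post-treatment and 19.7 at washout (both animal 26292). AT libraries with 3 AADAC counts or fewer, 2 of 10 pre-treatment and 3 of 8 at washout, could not be told from SM. Of these, 1 pre-treatment (animal 24849) and 1 at washout (animal 21866) were at 0. AADACL3 had 22 counts in the 21 SM libraries, with at most 4 in any and 7 libraries at 0, and it did not pass the filter on low counts there. With CPM scaled within each tissue, its mean in AT was 63.2 times that in SM pre-treatment, 7.24 times post-treatment and 21.0 times at washout. The SM means rest on 4, 8 and 10 counts. The edgeR fit of both tissues together put the pre-treatment difference at 4.76 on the log2 scale (5.13 and 5.39 under 2 alternatives), smaller than this ratio. The AT values pre- and post-treatment picked the gene, so the smaller ratio post-treatment is a description. Post-treatment, 4 of the 8 SM counts came from animal 23004 (0.215 CPM), and without that library the ratio was 13.3. Pre-treatment the lowest AT library held 0.194 CPM from 4 counts and the highest SM library 0.0775 CPM from 1 count, too few counts to separate them. The tissues overlapped post-treatment and at washout. The AADAC limits cover counting error only, and the AADACL3 ratios are quotients of group means given without an error.

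NCEH1 lay between 2.13 and 7.16 CPM and CES1 between 1.19 and 10.8 CPM over all SM libraries. Pre-treatment levels in AT were higher, by 2.74 on the log2 scale for NCEH1 (SE 0.44, adjusted p = 9.51e-07) and by 1.70 for CES1 (SE 0.33, adjusted p = 1.54e-05), in edgeR's quasi-likelihood test of both tissues together. In that comparison 76.4% of 13662 genes were called, and the median difference of all genes was 0.17, or 0.90 when libraries were scaled by their size alone. With that scaling the differences were 3.49 for NCEH1 and 2.46 for CES1.

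**Figure D4:**
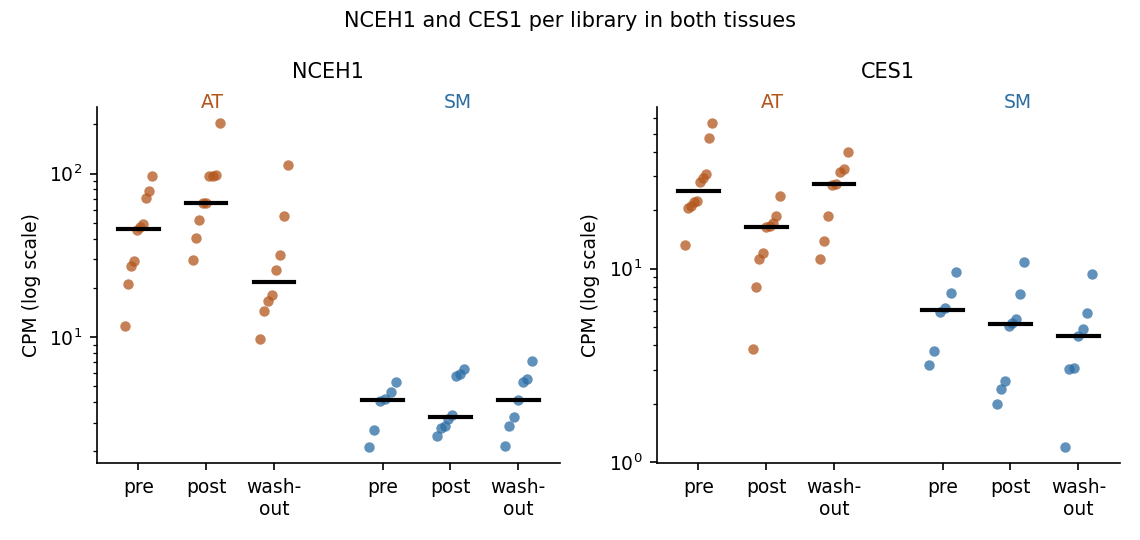
NCEH1 (left) and CES1 (right) in CPM on a log scale, with 1 point per library, AT in orange and SM in blue, and a black bar at the median of each time point. NCEH1 is higher in every AT library than in every SM library of the same time point. The share of all genes with such a gap was not computed. For CES1 the post-treatment libraries of AT (from 3.82 CPM) and SM (up to 10.8 CPM) overlap.

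Neither gene was called in SM. For NCEH1 the edgeR log2 fold changes were -0.14 (95% interval -0.56 to 0.28) post- compared to pre-treatment, 0.16 (-0.24 to 0.55) at washout compared to post-treatment and 0.02 (-0.41 to 0.44) at washout compared to pre-treatment. For CES1 they were 0.03 (-0.33 to 0.39), -0.31 (-0.65 to 0.04) and -0.27 (-0.63 to 0.09). Within animals, CES1 in SM was lower at washout than pre-treatment in 6 of 6, by a median of -0.18 on the log2 scale, though the fit did not pass the test (adjusted p = 0.515 in edgeR's quasi-likelihood test). The count of 0 DE genes in SM post- compared to pre-treatment was the same in DESeq2 and in voomWithQualityWeights of limma, and 323 genes had an unadjusted p under 0.05 in edgeR.

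The change from post-treatment to washout differed between the tissues for both genes, where 21.9% of 12322 genes did. The AT change minus the SM change was -1.71 for NCEH1 (SE 0.53, adjusted p = 0.0200) and 1.17 for CES1 (SE 0.37, adjusted p = 0.0225) in edgeR's quasi-likelihood test. With voom of limma the adjusted p were 0.159 and 0.0792, and the calls ended. For post- compared to pre-treatment, where 0.0406% of genes differed, the differences were 0.92 (adjusted p = 0.584) for NCEH1 and -1.15 (adjusted p = 0.2603) for CES1 in the edgeR test, and for washout compared to pre-treatment, where 17.0% did, they were -0.79 (adjusted p = 0.352) and 0.02 (adjusted p = 0.979).

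Among other ester hydrolases in AT, 49 were listed, 40 were in the table and 31 passed the filter. LIPE, PNPLA2 and CES3 were not analysed here. Post- compared to pre-treatment 0 rose and 4 fell in edgeR's test (3 and 6 at an unadjusted p under 0.05). These were 12.9% of the 31, near the 14.5% of all genes that were DE, and the median log2 fold change of the 31 was 0.05, against 0.03 for all genes. PNPLA3, an acylhydrolase of lipid droplets, went from a mean of 11.2 ± 6.06 (SD, n = 10) to 6.40 ± 6.77 (SD, n = 9) CPM, lower in 8 of 9 animals, and the fitted difference was -1.08 in log2 (SE 0.33, adjusted p = 0.0374 in edgeR's quasi-likelihood test). LPL, the lipase that frees fatty acids from circulating lipoproteins, fell by 0.71 on the log2 scale (adjusted p = 0.0387 in the same test), in 8 of 9 animals. The lactonase gene PON2 fell in 9 of 9 animals, by 0.51 (adjusted p = 0.00578), and PNPLA4 in 7 of 9, by 0.52 (adjusted p = 0.0460).

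These calls, like those over all genes, hung on several animals. With the members counted in, 6 of the 35 hydrolases tested were called, against 14.5% of all genes. Of the hydrolases 3 were called without animal 20275, 21189, 21866 or 26292 and 2 without animal 22130. These counts include AADACL3, whose fall in this comparison was fixed by its choice, so they are descriptions. The count over all genes fell as well, from 1943 of 13367 to between 665 and 1345 when 1 of those animals was left out.

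At washout compared to post-treatment 3 of the 31 rose and 6 fell, or 29% against 34.0% of all genes, with a median of -0.07 against 0.00 for all genes. PNPLA3 rose by 1.84 (SE 0.36, adjusted p = 8.47e-04 in edgeR's quasi-likelihood test) and PON2 by 0.34 (adjusted p = 0.0168). CEL, the bile salt-activated lipase, had group means of 0.277 CPM pre-treatment, 0.275 CPM post-treatment and 1.24 CPM at washout. It rose in 8 of 8 animals (log2 fold change 2.06, adjusted p = 0.00120 in the same test). Its means at the earlier time points lay under the 0.5 CPM of the filter, near the limit of counting. CEL may have passed that filter through its washout libraries, so its p is given as a description. The decreases were in LIPA, the thioesterase gene ACOT11 (-1.66), the phospholipase gene LIPH (-1.05), the lysophospholipase gene ABHD12 (-0.996), ABHD2 (-0.54) and the monoacylglycerol lipase gene MGLL (-0.52). Compared to pre-treatment, CEL was higher at washout (2.10) and ABHD2 lower (-0.61), and no other hydrolase was DE (6.45% against 19.8% of all genes). In SM 0 of the 30 hydrolases tested were DE in any comparison by edgeR, DESeq2 or voomWithQualityWeights. At an unadjusted p under 0.05 in edgeR, 2 of the 30 stood out post- compared to pre-treatment, against 323 of all 12617 genes. These counts were 4 against 2029 at washout compared to post-treatment, and 5 against 1621 at washout compared to pre-treatment. With identifier series as a covariate 2 of the 30 were called in each comparison of washout. Of all 12617 genes, 2390 were called with this covariate at washout compared to post-treatment and 1278 compared to pre-treatment, so the 2 are no result about hydrolases.

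**Figure D5:**
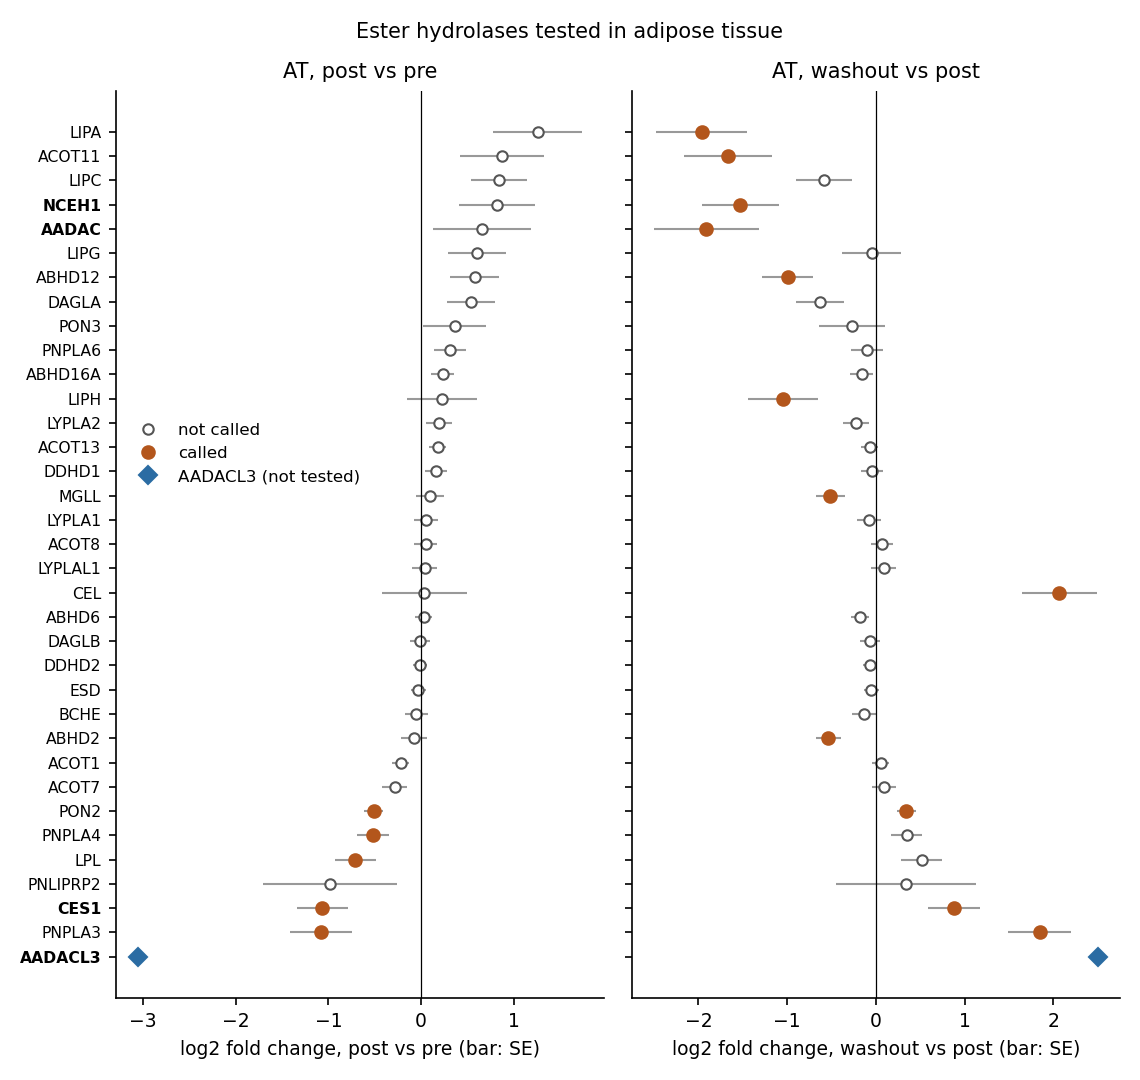
Log2 fold change (point) and SE (bar, not drawn for AADACL3) of the 35 ester hydrolases tested in AT, post- compared to pre-treatment (left) and washout compared to post-treatment (right), with filled circles for DE genes, members in bold and AADACL3 as a diamond because it was picked by its change. AADACL3 lies at -3.05 and 2.50, CES1 at -1.06 and 0.88, and NCEH1 and AADAC are to the right of 0 on the left and DE to the left of 0 on the right.

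Of 11 listed enzymes that make the esters 7 were tested in AT. Post-treatment 2 rose and 2 fell, 57.1% of the 7 against 14.5% of all genes, and at washout compared to post-treatment 3 rose and 2 fell, 71.4% against 34.0%. The list is short and was chosen with earlier results known, so these shares are a description. SOAT2 and SOAT1, which esterify cholesterol, rose by 1.30 (adjusted p = 0.0304 in edgeR's quasi-likelihood test) and 0.42 (adjusted p = 0.0451). MOGAT1 and DGAT2, acyltransferases on the route to triacylglycerol, were lower in 9 of 9 animals each. DGAT2 fell by 1.13 (SE 0.28, adjusted p = 0.0147). MOGAT1 fell by 3.91 (SE 0.64, adjusted p = 0.00221 in edgeR's quasi-likelihood test), from a mean of 0.953 to 0.0635 CPM. Its post-treatment level is, like that of AADACL3, near the limit of counting and under the 0.5 CPM of the filter. MOGAT1 may have passed that filter through its pre-treatment and washout libraries, so its p is given as a description. At washout compared to post-treatment MOGAT1 and DGAT2 rose by 4.07 and 1.11, SOAT2 and SOAT1 fell by 1.47 and 0.47, and LCAT, which esterifies cholesterol on lipoproteins, rose by 0.83 (adjusted p = 6.25e-05 in the same test) in 8 of 8 animals.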

How the data were processed

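RNA was sequenced from AT and SM biopsies of 10 rhesus macaques at 3 time points. Paired reads were aligned by the authors (STAR, MacaM genome), who deposited raw counts per gene. The counter is not given in the sources used here. FastQC, SAMtools, edgeR and limma are also named in the submitters' processing notes. Of 51 labelled samples, 48 had counts, and 3 SM samples were not analysed here. Of 16103 entries, 70 repeats with identical counts were dropped.

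A gene was tested where at least 10% of a tissue's libraries reached 0.5 CPM, with edgeR 4.0.16 in R 4.3.3 (TMM scaling, robust quasi-likelihood fit with time point and animal, Benjamini-Hochberg adjustment over all genes of the tissue). CPM are relative to TMM-scaled library totals, and log2 CPM used a prior count of 2. Differences between tissues were tested in 1 fit over the genes tested in both, and levels before treatment in 1 fit over the genes tested in either. The limits for DE were 0.05 (adjusted p) and 0.26 (log2 fold change, either direction). DESeq2 1.42.0 and limma 3.58.1 served as alternatives. The animal numbers of the labels pair the libraries: after removal of time point means, libraries of 1 animal had a median r of 0.352 in AT over 25 pairs (-0.0354 for 217 other pairs) and 0.279 in SM over 19 (-0.0464 for 127). The fits were run on simulated counts without differences between animals, so the pairing by animal was not tested there. Python 3.11.15 with SciPy 1.17.1 was used for exact permutation tests.

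Named genes were the members, their neighbors in the RefSeq annotation, the 5 genes most like each member (for AADACL3 also the 3 most opposed), and the listed hydrolases and ester-synthesis enzymes that were DE in AT. The other genes named were the leading markers and library checks. The members and lists were chosen with earlier results of these data known, so that counts over the lists are descriptions.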

Additional observations from a re-analysis of the deposited data

Results flagged for a closer look

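Among 36 groups of CPM values or within-animal changes of the 4 members, 4 held a library or animal far from the others by Dixon's criterion, and chance alone sets such a mark in about 1 of 20 groups. The washout compared to post-treatment change of AADAC in AT was -5.18 in animal 21866, against -1.98 to 0.65 in the other 7. NCEH1 in AT was at 203 CPM in the post-treatment library of animal 20275 (29.6 to 98.5 CPM in the others) and at 113 CPM in the washout library of animal 23004 (9.74 to 54.9 CPM in the others). The same libraries had 9253 and 2998 CPM of LIPA, the maxima of their groups. The washout compared to pre-treatment change of CES1 in AT was -2.07 in animal 23004, against -0.66 to 0.60 in the others. For the step from post-treatment to washout, the AT change minus the SM change was -1.71 for NCEH1 and 1.17 for CES1 (adjusted p = 0.0200 and 0.0225, interaction in edgeR's quasi-likelihood test).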

How the results depend on the processing

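AADACL3 and AADAC could not be tested with at least 10 counts in every library. Depth limits both. With AADACL3 left out, 341 log2 fold changes, tissue differences and correlations were computed under an alternative, of which 308 held direction and call, 20 lost the call, 2 gained it and 11 changed sign. Of 120 counts of DE genes, 13 moved by over 1.5 times. Counts of hydrolases called in AT cover AADACL3, picked by its fall, wherever it could be tested, so they are descriptions. Across the alternatives, counts of all genes called in AT ran from 665 to 2607 post- compared to pre-treatment. They ran from 3472 to 4932 at washout compared to post-treatment and from 1190 to 3685 compared to pre-treatment. Without the replicate block (animal left out of the paired model) AADAC at washout compared to post-treatment had -1.77 and was no longer DE, the hydrolases called there went from 13 to 7, and SM post-treatment changes turned to 0.0922 for NCEH1 and -0.23 for CES1. With only the 2 time points, AADAC had -1.78 and CES1 0.91 at washout compared to post-treatment, neither DE, AADAC at washout compared to pre-treatment became DE at -1.20, and SM CES1 post-treatment was -0.00713. With voomWithQualityWeights, AADAC at washout compared to pre-treatment became DE at -1.36. Hydrolases called at washout compared to pre-treatment were 2, and 4 with either of these settings, 1 with at least 10 counts in every library and 1 without the libraries high in skin markers, an alternative chosen after seeing the data that also gave -1.43 for AADAC and 0.81 for CES1 at washout compared to post-treatment, neither DE. With identifier series as a covariate, CES1 at washout compared to post-treatment was 0.73 (not DE), SM CES1 post-treatment -0.0520, and 2 hydrolases were called in SM at washout compared to each earlier time point, against 0; all genes called there went from 17 to 2390 and from 3 to 1278. DESeq2 called 359 and 179 genes there, and 2607 in AT post-treatment against 1943. Without the pre-treatment AT library of animal 20275, 3 hydrolases in place of 6 were called post-treatment. With library size alone, SM NCEH1 at washout compared to pre-treatment was -0.0610. With voom, the tissue differences at washout compared to post-treatment were -1.65 and 1.11 (not called) and that of CES1 at washout compared to pre-treatment -0.0455. With summed CPM, r of CES1 and adipocyte markers was 0.648 (exact permutation p = 0.0608, n = 9). The causes were not tested. Leaving out 1 animal at a time gave ranges of 2 to 7 hydrolases called post-treatment in AT, -1.18 to -0.92 for CES1 post-treatment, 0.651 to 1.005 at washout compared to post-treatment and -0.334 to 0.0597 compared to pre-treatment; in SM, -0.0568 to 0.0832 for NCEH1 at washout compared to pre-treatment, -0.235 to 0.00728 for NCEH1 and -0.0486 to 0.124 for CES1 post-treatment; and r of CES1 and adipocyte markers of 0.407 to 0.878. Leaving out 1 library at a time, an alternative chosen after seeing the data, gave ratios of the AT to the SM mean of 5.37 to 13.3 for AADACL3 post-treatment, and limits of 82.6 to 139.9 post-treatment and 19.7 to 36.4 at washout for AADAC.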
